A study of Mus musculus with 16 samples.

Results

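The 9 genes examined belong to mitochondrial fatty acid oxidation and were measured in mouse inguinal white adipose tissue, a subcutaneous fat depot abbreviated iWAT. They were taken by name from the deposited table of raw gene counts, and all 9 were found among its 54752 gene identifiers and passed the low-count filter that left 19736 genes for testing. Of these, 8 encode proteins of the pathway itself, namely Cpt1a, Cpt2, Acadvl, Acadl, Acadm, Hadha, Hadhb and Acaa2, and the remaining gene, Ppara, encodes a transcription factor that regulates them. The tissue came from mice labelled female, C57BL/6 and 90 days old, in 4 genotypes with 4 libraries each: wild type (WT), Lepob/+ (1 copy of the obese allele of the leptin gene), SOD1-G93A (a human SOD1 transgene with an amyotrophic lateral sclerosis mutation) and SOD1-G93A Lepob/+ (both). The study asked through which mechanism a lower leptin dose acts in female SOD1-G93A mice. The ob allele is carried in every tissue rather than in fat alone, and the Lepob/+ mice keep 1 intact leptin gene. The SOD1-G93A transgene is likewise not limited to adipose tissue. Each genotype therefore describes whole animals, and in bulk tissue fewer cells of a type and less RNA per cell cannot be told apart.

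Fatty acid oxidation shortens fatty acids inside mitochondria in repeated cycles that release acetyl-CoA and reduced cofactors. Long-chain acyl groups enter through the carnitine shuttle, the acyl-CoA dehydrogenases take the first step according to chain length, the trifunctional protein and the thiolase finish each cycle, and PPARα, when bound by fatty acids, switches on many of these genes. White adipocytes mainly store fat and oxidise little of it, whereas thermogenic (brown and beige) adipocytes and muscle fibres oxidise fat at a high rate.

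Hadha and Hadhb lie head to head on chromosome 5, and their shared upstream stretch is shown because these genes were among the pairs with the most similar profiles. Their annotated starts (GENCODE M21, GRCm38) are separated by 85 bases, and the RefSeq promoter windows of 300 bases (GRCm38.p6, from 250 bases before to 50 after each start) have 228 bases in common. The RefSeq starts flank these 228 bases. GENCODE places the start of Hadha at 30155162, within them, so part of the stretch lies inside Hadha as annotated there. Capitals mark the GC box (GGGCGG, searched on both strands), which 35.7% of all 32851 RefSeq promoter windows and 6 of the 8 member windows contained.
Hadha and Hadhb, chr5:30155003-30155230, plus strand: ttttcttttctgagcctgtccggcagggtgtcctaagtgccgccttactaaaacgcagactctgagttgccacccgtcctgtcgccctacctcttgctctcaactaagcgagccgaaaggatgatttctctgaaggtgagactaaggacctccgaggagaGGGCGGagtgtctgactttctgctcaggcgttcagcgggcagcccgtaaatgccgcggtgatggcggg
PPARα and other nuclear receptors bind DNA through repeats of a half-site, AGGTCA. The half-site was found on either strand in 3 of the 8 member windows, against 16.3% of all windows, and its match is shown in capitals (read as TGACCT where it lies on the opposite strand). It began 249 bases before the RefSeq start in Acadm, 87 bases before it in Acadvl and 94 bases before it in Cpt1a. A match of 6 letters is a description of the sequence and not a binding site, and the 2 motifs do not overlap each other.
Acadm, chr3:153944860-153944893, minus strand: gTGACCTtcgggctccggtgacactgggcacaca
Acadvl, chr11:70015483-70015542, minus strand: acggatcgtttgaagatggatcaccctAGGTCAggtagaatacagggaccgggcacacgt
Cpt1a, chr19:3323180-3323239, plus strand: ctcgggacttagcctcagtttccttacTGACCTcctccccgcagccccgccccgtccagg

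Library totals ranged from 36795376 to 61886313 counts. Adipoq, which encodes the adipocyte hormone adiponectin, lay between 1209 and 3262 CPM (counts relative to the scaled library total) in the 16 libraries, so all contained adipocyte RNA. Lep lay between 181 and 1843 CPM with overlapping genotypes; a point mutation in 1 allele need not change this count, and the human transgene is not represented among mouse genes, so neither mutation could be checked. The library labelled SOD1-G93A Lepob/+ 3 went against its label, with 0 counts of Xist and 1756 counts of 4 Y-linked genes. Genes of T cells averaged between 5.80 and 6.74 log2 CPM in 6 libraries (WT 1 and 2, Lepob/+ 3, SOD1-G93A 1, 2 and 4) and between -0.33 and 1.30 in the other 10. Skeletal muscle genes reached 12.95 log2 CPM in Lepob/+ 4 and 7.47 in WT 3, and thermogenic adipocyte genes were highest in Lepob/+ 3 at 4.66.

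Per length of the longest coding transcript, the genes spanned a wide range of levels. Acadl had the highest level, with a mean of 171 CPM per kilobase over the 16 libraries, followed by Acadm at 138, Acadvl at 103, Acaa2 at 101, Hadhb at 97.2, Hadha at 68.1, Cpt2 at 46.0 and Cpt1a at 28.6. Ppara was far below them at 0.667 CPM per kilobase. The order of Acadvl, Acaa2 and Hadhb was not resolved, since Acadvl exceeded Acaa2 in 9 of 16 libraries and Acaa2 exceeded Hadhb in 11. Every other neighbour in the order kept its rank in all 16 libraries at this choice of length. The order depended on the length used. Divided by all annotated exons instead, Acadm came to 72.3 CPM per kilobase, below Acaa2 at 101 and Acadvl at 83.1. Hadha and Hadhb came to 31.4 and 30.2 CPM per kilobase, below Cpt2 at 45.6. For these 2 genes, Hadha and Hadhb, all annotated exons total 8730 and 6595 bases against 4017 and 2048 in the longest coding transcript.

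Of the carnitine shuttle, the members Cpt1a and Cpt2 showed no difference between genotypes beyond the spread of their replicates. Cpt1a (ENSMUSG00000024900, chr19:3322334-3385733) encodes the outer-membrane carnitine palmitoyltransferase that limits entry of long-chain fatty acids. Its level was 102, 151, 80.1 and 141 CPM in WT 1 to 4. In Lepob/+ it was 150, 161, 98.6 and 84.9 CPM, in SOD1-G93A 117, 101, 115 and 122 CPM, and in SOD1-G93A Lepob/+ 128, 156, 153 and 113 CPM. The 4 genotypes overlapped, and WT and Lepob/+ each held both high and low libraries. Cpt2 (ENSMUSG00000028607, chr4:107903981-107923610) encodes the inner-membrane transferase that releases acyl-CoA into the matrix. It was measured at 127, 96.0, 140 and 94.9 CPM in WT, at 99.6, 95.9, 118 and 104 CPM in Lepob/+, at 115, 73.9, 121 and 83.2 CPM in SOD1-G93A and at 132, 99.98, 100.4 and 144 CPM in SOD1-G93A Lepob/+. The highest mean, 119 ± 22.4 CPM in SOD1-G93A Lepob/+, was within 1 SD of the lowest, 98.3 ± 23.3 CPM in SOD1-G93A (SD, n = 4).

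The 3 acyl-CoA dehydrogenases had their highest values in Lepob/+ 3. Acadvl (ENSMUSG00000018574, chr11:70010183-70015411), the very-long-chain enzyme, was at 207, 180, 274 and 187 CPM in WT and at 203, 189, 363 and 335 CPM in Lepob/+. It was at 244, 165, 232 and 196 CPM in SOD1-G93A and at 210, 168, 174 and 245 CPM in SOD1-G93A Lepob/+. Lepob/+ 3 and 4 were thus above every other library, while Lepob/+ 1 and 2 lay among the WT values. Of the exonic bases of Acadvl, 42.9% are also exonic in Dvl2 on the opposite strand, and the strand setting of the counting is not given in the sources used here, so its counts are uncertain. Dvl2 itself was counted at between 18.8 and 29.4 CPM.
Acadl (ENSMUSG00000026003, chr1:66830839-66863277), the long-chain enzyme, ranged from 253 to 362 CPM in WT, from 286 to 429 CPM in Lepob/+, from 232 to 363 CPM in SOD1-G93A and from 282 to 407 CPM in SOD1-G93A Lepob/+. Acadm (ENSMUSG00000062908, chr3:153922357-153944632), the medium-chain enzyme, was at 250, 220, 347 and 240 CPM in WT and at 291, 275, 358 and 355 CPM in Lepob/+. In SOD1-G93A it was at 290, 183, 297 and 246 CPM, and in SOD1-G93A Lepob/+ at 298, 271, 297 and 310 CPM. The Acadm libraries of the double mutant spanned a narrow range (SD 16.3 CPM) inside that of WT.

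The trifunctional protein, whose α subunit (Hadha) hydrates and oxidises the chain and whose β subunit (Hadhb) cleaves it, was highest in Lepob/+ 3 for both subunits. Hadha (ENSMUSG00000025745, chr5:30118304-30155162) was at 296, 221, 314 and 218 CPM in WT, at 252, 220, 407 and 383 CPM in Lepob/+, at 321, 209, 276 and 255 CPM in SOD1-G93A, and at 278, 212, 202 and 314 CPM in SOD1-G93A Lepob/+. Hadhb (ENSMUSG00000059447, chr5:30155248-30184593) was at 200, 158, 240 and 153 CPM in WT, at 184, 164, 342 and 240 CPM in Lepob/+, at 243, 143, 198 and 186 CPM in SOD1-G93A, and at 204, 144, 151 and 236 CPM in SOD1-G93A Lepob/+. For both subunits the genotypes overlapped and the Lepob/+ group was the most spread, with an SD of 93.1 CPM for Hadha and 79.7 CPM for Hadhb. Acaa2 (ENSMUSG00000036880, chromosome 18, 74779197 to 74806208) encodes the mitochondrial thiolase and has no entry in the promoter table. It was at 127, 123, 192 and 144 CPM in WT, at 143, 152, 231 and 195 CPM in Lepob/+, at 162, 111, 156 and 131 CPM in SOD1-G93A, and at 157, 141, 142 and 152 CPM in SOD1-G93A Lepob/+.

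Ppara (ENSMUSG00000022383, chr15:85734983-85802819) was expressed at a low level and varied most. It had between 23 and 400 counts per library. WT lay at 1.55, 1.23, 2.02 and 0.608 CPM, and Lepob/+ at 1.97, 0.904, 9.72 and 1.43 CPM. SOD1-G93A lay at 4.90, 1.58, 2.37 and 2.52 CPM, and SOD1-G93A Lepob/+ at 0.996, 1.40, 1.20 and 2.05 CPM. A single library, Lepob/+ 3, therefore set the Lepob/+ mean of 3.51 ± 4.16 CPM (SD, n = 4), and its other 3 libraries were within the WT range. The same library had 313 CPM of Ucp1, the uncoupling protein of thermogenic adipocytes, against 0.175 to 75.6 CPM in the other 15. The library next in Ppara, SOD1-G93A 1, was also next in Ucp1.

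**Figure D1:**
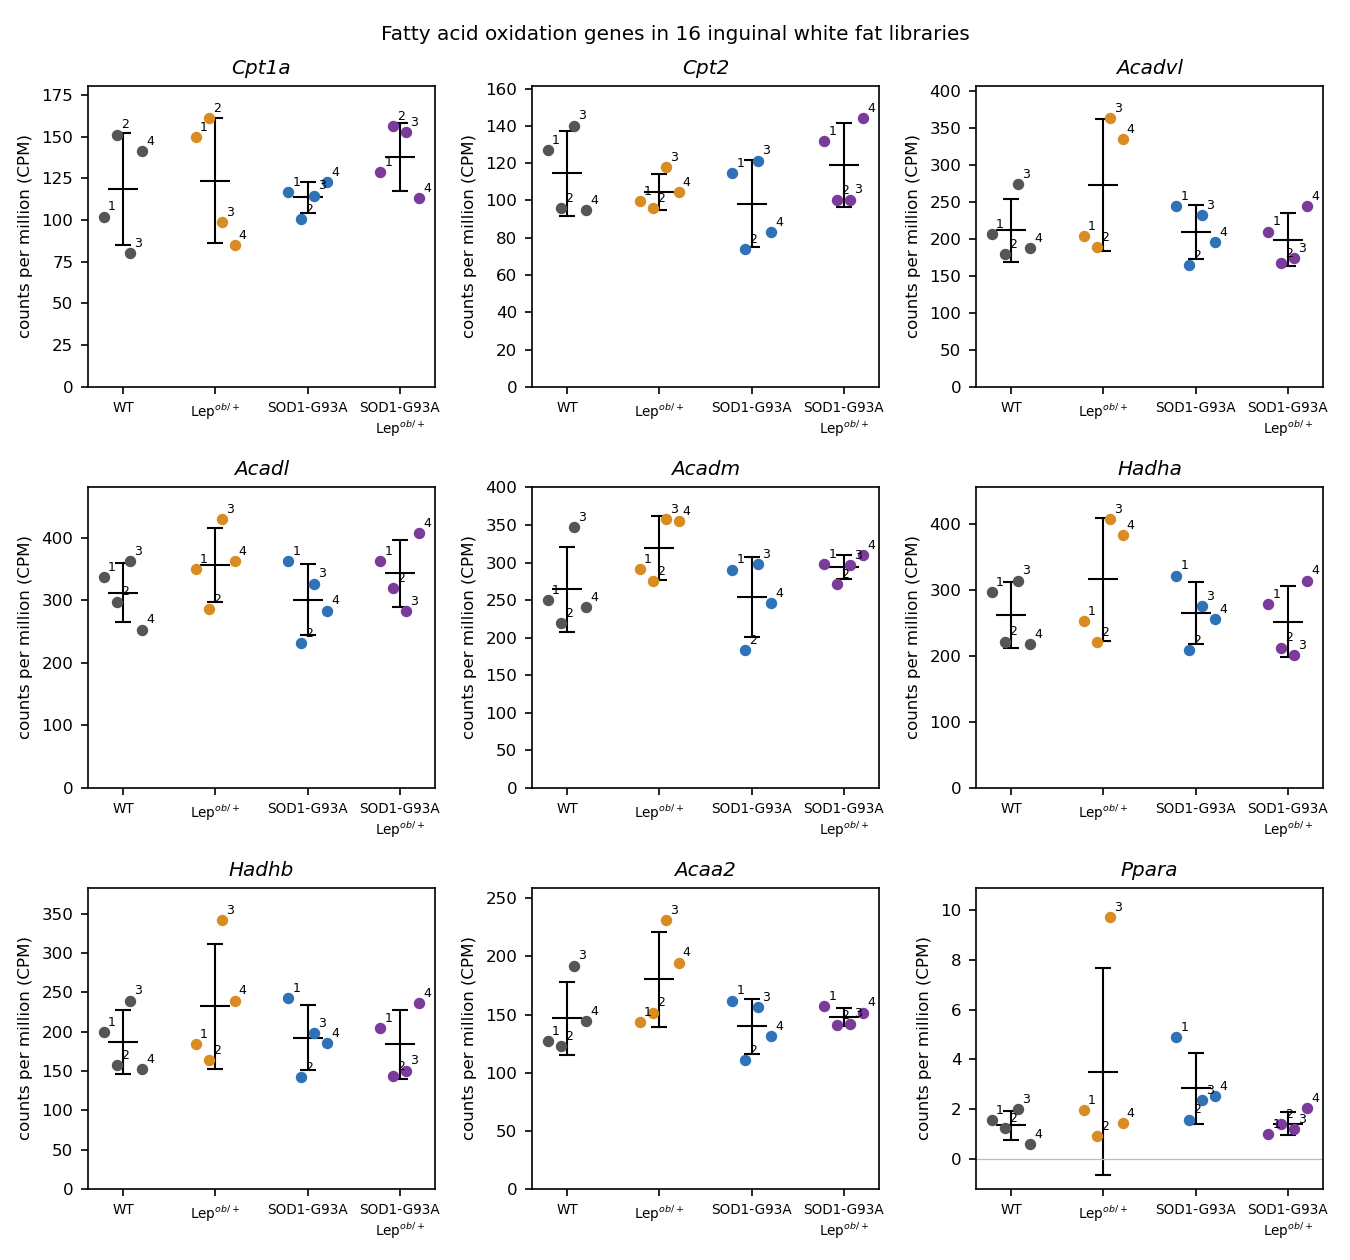
Level of the 9 genes in CPM (vertical axis, linear) in the 4 genotypes (horizontal axis). Each point is 1 library, numbered by replicate, and the bars give mean ± SD of 4 libraries. Lepob/+ 3 is the highest library for Acadvl, Acadl, Acadm, Hadha, Hadhb, Acaa2 and Ppara, and the genotypes overlap in every panel.

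No gene of the 9 passed the test in any comparison, and in none of the 5 comparisons between genotypes did the groups lie apart for any of them. For Lepob/+ against WT, edgeR called 0 of the 9 genes at an adjusted p below 0.05, where it called 0% of all genes tested. At an unadjusted p below 0.05 it counted 0 of 9, against 862 genes or 4.37% of all, and 0.907% of all genes had groups that did not overlap. DESeq2 on the same 16 libraries called 0 members and 0.00325% of its genes. Of the 8 enzymes, 7 had a higher fitted mean in Lepob/+, with a median log2 fold change of 0.27 against 0.03 over all genes tested. The extremes were Acadvl, with a log2 fold change of 0.36 (SE 0.23, 95% interval -0.13 to 0.85), and Cpt2, with -0.13 (SE 0.19, interval -0.54 to 0.27). Ppara had a log2 fold change of 1.36 (SE 0.64, interval -0.01 to 2.74, adjusted p = 1). In the same comparison, 16 of 16 skeletal muscle marker genes and 8 of 10 thermogenic adipocyte genes had a higher fitted mean in Lepob/+. The summed level of the muscle list ran from 56.5 to 6649 CPM in WT and from 55.1 to 255600 CPM in Lepob/+, with Ckm, Myh1, Myh2, Myh4, Pvalb and Atp2a1 at 0 in at least 1 library, and that of the thermogenic list from 63.9 to 148 CPM and from 59.4 to 706 CPM. Their part in the values of the members was not tested. Without Lepob/+ 3 the median of the enzymes was 0.12 and the log2 fold change of Ppara 0.08. Without Lepob/+ 3 and 4 together, a choice made after the data were seen, the median was -0.07 and 2 of the 8 enzymes were higher.

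For SOD1-G93A against WT, 0 members were called where 0% of all genes were. None had an unadjusted p below 0.05, against 2.56% of all genes, and 2.05% of all genes had groups apart. DESeq2 called 0 members and 0.00976% of its genes. The enzymes had a median log2 fold change of -0.05, against 0.02 over all genes, from -0.22 (Cpt2, interval -0.62 to 0.19) to 0.04 (Hadhb, interval -0.50 to 0.58). Ppara had a log2 fold change of 1.06 (SE 0.64, interval -0.31 to 2.43, adjusted p = 0.998). Without WT 3, the WT library with the most enzyme and muscle transcripts, the median of the enzymes was 0.10.

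For SOD1-G93A Lepob/+ against SOD1-G93A, which asks what leptin haploinsufficiency does in the disease model, edgeR again called 0 members and 0% of all genes. None of the 9 was among the 16.5% of genes with an unadjusted p below 0.05 or the 7.18% with groups apart, and DESeq2 called none of them among its 2.85%. Cpt1a and Cpt2 both had a log2 fold change of 0.28 (intervals -0.21 to 0.76 and -0.13 to 0.68), and Acadm had 0.21 (SE 0.18). Acadvl, Hadha and Hadhb were between -0.08 and -0.07. The median over the 8 enzymes was 0.13, against 0.00 over all genes. Ppara had a log2 fold change of -0.999 (SE 0.64, interval -2.36 to 0.36, adjusted p = 0.432). The limma voom fit with quality weights, which called 31.5% of all genes here, called Ppara alone of the members (log2 fold change -1.24, adjusted p = 0.0337). It was the only 1 of 28 alternatives to call a member in this comparison. Over them the log2 fold change of Ppara ran from -1.44 to -0.28. The T cell list had a median log2 fold change of -5.92 in this comparison. Of the SOD1-G93A libraries 3 of 4 were rich in lymphocyte genes, against 0 of 4 of the double mutant, and their part in the values of the members was not tested. With the level of T and B cell genes as a covariate the median of the enzymes was 0.06. Without SOD1-G93A Lepob/+ 3 it was 0.15, and Hadha and Hadhb changed sign, so that 7 of the 8 enzymes had a higher fitted mean.

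Between SOD1-G93A Lepob/+ and WT, 0 members and 0% of all genes were called, no member was among the 4.74% with an unadjusted p below 0.05 or the 3.64% with groups apart, and DESeq2 called 0 members and 0.143% of its genes. The log2 fold changes of the enzymes ran from -0.09 (Acadvl) to 0.21 (Cpt1a, interval -0.27 to 0.70) with a median of 0.04, against 0.01 over all genes, and Ppara had 0.06 (SE 0.63). Without SOD1-G93A Lepob/+ 3 the median was 0.09 and 7 of the 8 enzymes were higher, against 5 with it, since Hadha and Hadhb changed sign. Against Lepob/+, the double mutant gave 0 members and 0% of all genes called, none among the 8.24% at an unadjusted p below 0.05 or the 2.35% with groups apart, and 0 members among the 0.221% called by DESeq2. Of the 8 enzymes, 6 had a lower fitted mean, with a median log2 fold change of -0.20 against -0.06 over all genes. Acadvl had -0.45 (SE 0.23, interval -0.94 to 0.04) and Ppara -1.30 (SE 0.64, interval -2.67 to 0.07). Without Lepob/+ 3 these became -0.28 and -0.02 and the median -0.07, and without Lepob/+ 3 and 4 together the median was 0.08 with 7 of the 8 enzymes higher. Without SOD1-G93A Lepob/+ 3 the median was -0.18. All 16 muscle genes and 8 of 10 thermogenic genes had a lower fitted mean in the double mutant, where their summed levels ran from 54.2 to 290.5 CPM and from 52.7 to 106 CPM. The muscle list averaged 12.95 log2 CPM in Lepob/+ 4 and between -0.8 and -0.27 in the rest of Lepob/+. The thermogenic list averaged 4.66 in Lepob/+ 3 and between 1.34 and 1.61 in the rest. In the double mutant these averages ran from -0.72 to 3.54 and from 0.54 to 2.73.

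The interaction asks whether the effect of the ob allele differed between mice with and without SOD1-G93A. The adjusted p was above 0.05 for all 9 members and for all genes (0% called), and DESeq2 called 0 members and 0.202% of its genes. At an unadjusted p below 0.05, edgeR counted 1 member, Ppara, and 7.98% of all genes. Its interaction term was -2.36 on the log2 scale (SE 0.90, interval -4.30 to -0.42, adjusted p = 0.564), and -1.07 (SE 0.60) without Lepob/+ 3. The terms of the enzymes ran from -0.44 (Acadvl) to 0.41 (Cpt2), with a median of -0.14 against -0.09 over all genes. That median was -0.03 without Lepob/+ 3 and -0.13 without SOD1-G93A Lepob/+ 3. The comparisons share groups with each other, so their fold changes are not independent of one another.

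**Figure D2:**
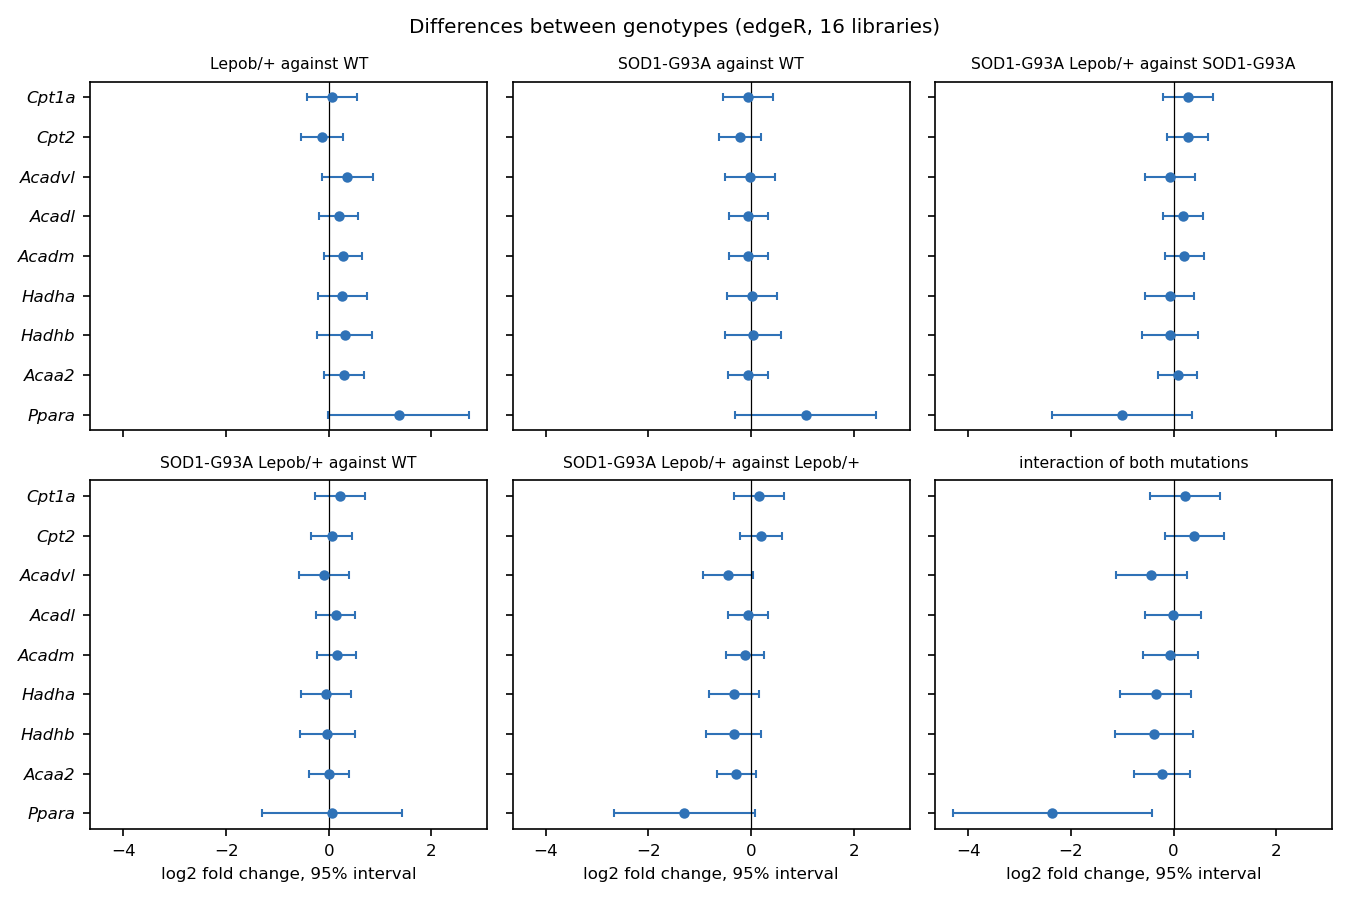
Log2 fold change (horizontal axis; for the interaction, the difference of log2 fold changes) of the 9 genes in 6 comparisons, from edgeR on 16 libraries. Points are estimates and bars 95% intervals, each of which includes 0 apart from that of Ppara in the interaction, and the intervals of Ppara are the widest.

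The enzymes varied among libraries of 1 genotype, with a coefficient of variation between 5.34% and 34.3%. All but Cpt1a also varied together when the genotypes were pooled, and correlation within single genotypes was not tested. Over the 16 libraries, the 21 pairs among the 7 enzymes other than Cpt1a had a Pearson r of log2 CPM between 0.54 and 0.96 (Spearman rho between 0.55 and 0.98), and all 21 had an adjusted permutation p below 0.05 for r among 36 pairs of members. Hadha and Hadhb, whose RefSeq starts flank the shared stretch shown above, had r = 0.96 and rho = 0.98 (permutation p = 1e-05 for each, the smallest that 100000 resamples can give, adjusted p = 6e-05 and 7.2e-05), and r = 0.98 without the 2 most distant libraries. The correlation of this pair was 0.99 within the 6 lymphocyte-rich libraries and 0.96 within the other 10. Acadvl and Hadha had r = 0.96 and rho = 0.96 (permutation p = 1e-05 for each, adjusted p = 6e-05 and 7.2e-05), 0.92 without the 2 most distant libraries, 0.96 in the 6 lymphocyte-rich libraries and 0.97 in the other 10. CPM shares a total within each library, so part of any common movement follows from what else the library holds.

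Cpt1a ran the other way. It was lowest in WT 3, Lepob/+ 4 and Lepob/+ 3, the 3 highest libraries for Acadvl, Acadm and Acaa2, and had r = -0.74 and rho = -0.69 with Hadha (permutation p = 0.0014 and 0.0042, adjusted p = 0.0031 and 0.0078). That correlation was -0.67 without the 2 most distant libraries, -0.46 within the 6 lymphocyte-rich libraries and -0.89 within the other 10. All 7 correlations of Cpt1a with the other enzymes were negative, from -0.74 to -0.34, and 3 of them, with Acadvl, Hadha and Hadhb, had an adjusted permutation p below 0.05. Ppara correlated with Hadhb at r = 0.75 and rho = 0.58 (permutation p = 9.4e-04 and 0.02, adjusted p = 0.0024 and 0.029). This r was 0.61 without Lepob/+ 3 and SOD1-G93A 2, the 2 libraries most distant in Hadhb rather than in Ppara. It was 0.93 within the 6 lymphocyte-rich libraries and 0.56 within the other 10.

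**Figure D3:**
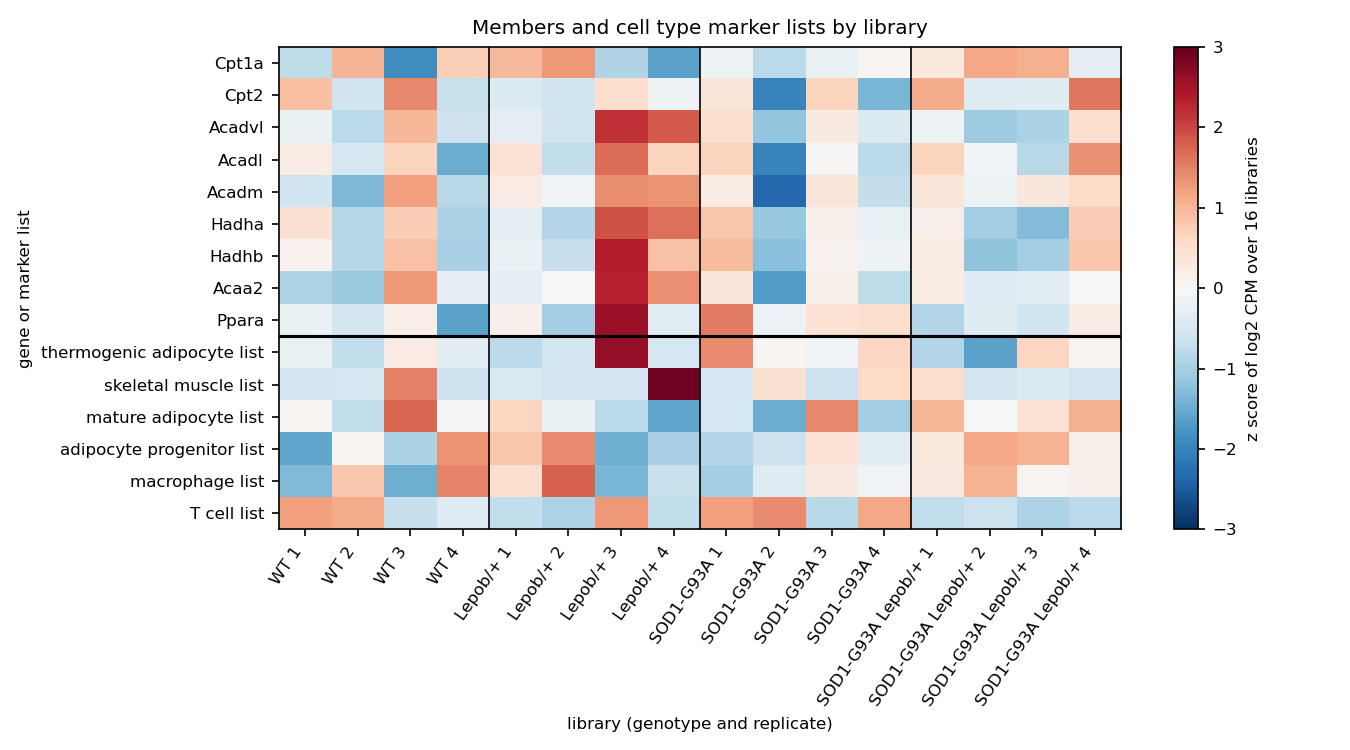
Z scores of log2 CPM over 16 libraries (columns, by genotype and replicate) for the 9 genes and, below the line, for the mean of 6 cell type marker lists. Red is above and blue below the mean of the row, and Lepob/+ 3 is the reddest column for Acadvl to Ppara while Cpt1a is blue there.

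Cpt1a was higher in libraries with higher levels of adipocyte progenitor and macrophage genes. Among 54 correlations of the 9 genes with 6 marker lists, 14 had an adjusted permutation p below 0.05 for r. Of these, 6 were positive and 8 negative. The negative ones were those of Acadvl, Hadha, Hadhb and Ppara with the progenitor and macrophage lists. By rank, only the correlations of Cpt1a with these lists had an adjusted permutation p below 0.05. The 8 negative ones had an adjusted permutation p of rho between 0.057 and 0.1. Acadl with the mammary epithelium list was among the positive ones (r = 0.66 and rho = 0.54, adjusted permutation p = 0.031 and 0.14). Cpt1a correlated positively with the adipocyte progenitor list (r = 0.84 and rho = 0.84, permutation p = 1.1e-04 and 1.4e-04, adjusted p = 0.0038 for both) and with the macrophage list (r = 0.83 and rho = 0.84, permutation p = 1.4e-04 for both, adjusted p = 0.0038 for both). The first was 0.85 without the 2 most distant libraries, 0.84 in the 6 lymphocyte-rich libraries and 0.97 in the other 10, and the second was 0.76, 0.85 and 0.85. Hadha correlated negatively with the progenitor list (r = -0.73 and rho = -0.70, permutation p = 0.0016 and 0.0032, adjusted p = 0.022 and 0.057), with -0.67 without the 2 most distant libraries, -0.75 in the 6 and -0.92 in the 10. No gene of the progenitor or macrophage lists was at 0 in any library, and progenitor genes averaged between 8.05 (WT 1) and 9.84 log2 CPM (Lepob/+ 2). WT 3 and Lepob/+ 4, the libraries lowest in Cpt1a, were also those highest in muscle genes (7.47 and 12.95 log2 CPM). Both are among the other 10, and the muscle list was not among the 6 lists correlated. Which cells hold these transcripts, and the part of muscle, were not tested.

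Ppara correlated with the thermogenic adipocyte list (r = 0.79 and rho = 0.64, permutation p = 8.7e-04 and 0.0086, adjusted p = 0.016 and 0.067). This relation rested on Lepob/+ 3 and SOD1-G93A 1, without which r was 0.35, and it was 0.99 within the 6 lymphocyte-rich libraries, which include both, and 0.18 within the other 10. Hadhb also correlated with this list (r = 0.64 and rho = 0.40, adjusted permutation p = 0.035 and 0.33), with r = 0.19 without the same 2 libraries. Cpt2 alone of the 9 had an adjusted permutation p below 0.05 for its correlation with the mature adipocyte list (r = 0.70 and rho = 0.65, permutation p = 0.0025 and 0.0078, adjusted p = 0.023 and 0.067), with 0.70 without the 2 most distant libraries, 0.88 within the 6 and 0.68 within the 10.

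**Figure D4:**
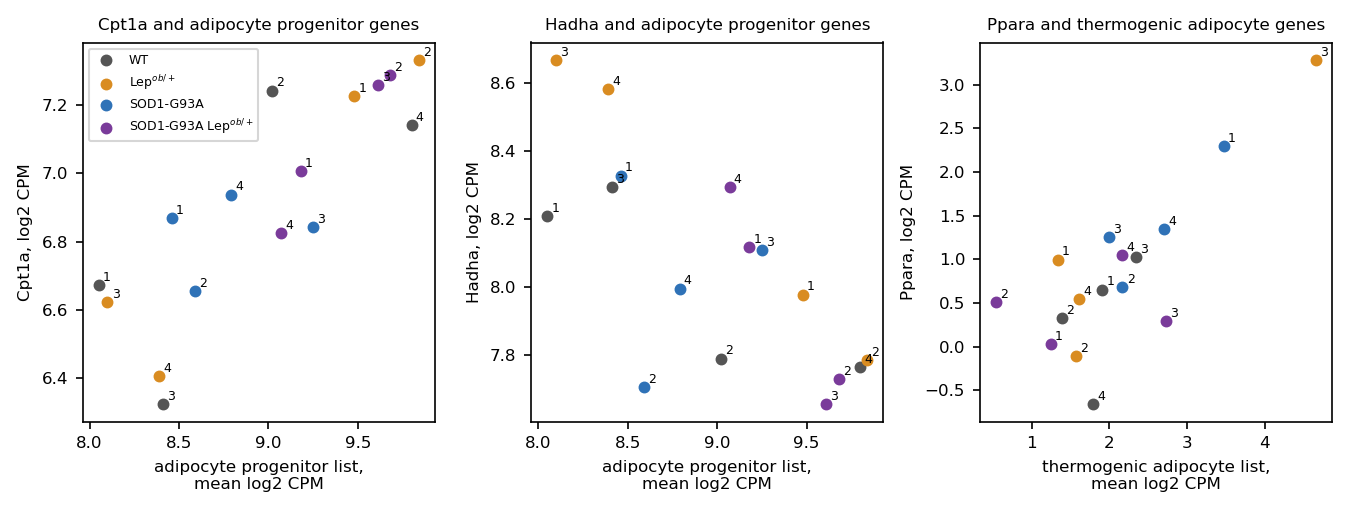
Log2 CPM of Cpt1a and Hadha (vertical axes) against the mean log2 CPM of the adipocyte progenitor list, and of Ppara against that of the thermogenic adipocyte list (horizontal axes). Each point is 1 of 16 libraries, coloured by genotype and numbered by replicate; Cpt1a rises and Hadha falls from left to right, and Lepob/+ 3 stands at the top right for Ppara.

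The genes outside the 9 whose profile over the 16 libraries was most like the mean z score of the 8 enzymes were Gm13910 (r = 0.91), Bckdha (0.90), Etfdh (0.90), Coq6 (0.88) and Acads (0.85), given as a description because they were picked from all genes for this measure. Gm13910 on chromosome 2 is annotated as a processed pseudogene and is named Hadhb-ps by RefSeq. Per the study's methods, reads had to map uniquely to be used. Reads of the Hadhb transcript may therefore have been assigned to Gm13910 or, where they fit both, left out, and the levels of both are uncertain. Gm13910 averaged 77.4 CPM. Etfdh encodes the dehydrogenase that passes electrons from acyl-CoA oxidation to ubiquinone, Coq6 an enzyme of ubiquinone synthesis, Acads the short-chain acyl-CoA dehydrogenase and Bckdha a subunit of the branched-chain ketoacid dehydrogenase.

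The remaining genes of the pathway were read from 5 lists. Of 24 other genes of mitochondrial oxidation, edgeR called 0 in any comparison. At an unadjusted p below 0.05 it counted 2 as higher and 0 as lower in Lepob/+ than WT, beside 702 higher and 160 lower of the 19736 genes tested. These were Cpt1b and Acsl6. Cpt1b, the carnitine palmitoyltransferase of muscle and brown fat, was at 3.28, 2.102, 86.2 and 288 CPM in Lepob/+ and between 3.32 and 22.8 CPM in WT and SOD1-G93A. Its 2 high libraries were the one richest in thermogenic genes and the one richest in muscle genes. Acsl6, an acyl-CoA synthetase, was at 20.9 CPM in Lepob/+ 4 and at most 0.594 CPM in the other 15 libraries. Acsl4, an acyl-CoA synthetase that prefers polyunsaturated chains, was at 24.7, 12.4, 27.03 and 28.8 CPM in SOD1-G93A Lepob/+, below all 4 Lepob/+ libraries (35.5, 35.5, 35.6 and 41.0 CPM, log2 fold change -0.67, SE 0.28, adjusted p = 0.602). In that comparison 2.35% of all genes had groups apart. Slc22a5, the plasma membrane carnitine transporter, had a log2 fold change of 0.33 (SE 0.15, adjusted p = 0.295 by edgeR and from 0.0111 to 1 over the alternatives) between the double mutant and SOD1-G93A. Among these alternatives, voom with quality weights called 31.5% of all genes in this comparison and DESeq2 on 16 libraries 2.85% of its genes.

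Of 13 tested PPARα targets outside β-oxidation, edgeR counted 5 as higher and 0 as lower in Lepob/+ than WT at an unadjusted p below 0.05, beside the 702 and 160 of all genes given above, and called 0. Pdk4, a kinase that shuts pyruvate dehydrogenase, was at 89.6, 70.1, 207 and 1052 CPM in Lepob/+, against 54.6, 71.8, 77.5 and 30.6 CPM in WT. Fabp3, the fatty acid binding protein of heart and muscle, was at 0.141, 0.269, 20.7 and 177 CPM in Lepob/+ and at most 2.74 CPM in WT. As with Cpt1b, Lepob/+ 3 and 4 were the high libraries of both genes. Vnn1, a pantetheinase, had another pattern, with 49.1 and 31.8 CPM in Lepob/+ 1 and 2 and at most 10.9 CPM in the other 14 libraries.
Angptl4, a secreted inhibitor of lipoprotein lipase, was among the 7.18% of all genes with groups apart between the double mutant and SOD1-G93A. It was at 490, 481, 516 and 400 CPM in SOD1-G93A Lepob/+ and at 297, 187, 290 and 250 CPM in SOD1-G93A, with no overlap and a log2 fold change of 0.88 (SE 0.24, interval 0.36 to 1.40, adjusted p = 0.261 by edgeR). DESeq2 on 16 libraries, which called 2.85% of its genes here, gave an adjusted p of 0.0247. The adjusted p ran from 0.000223 to 1.0 over all alternatives, of which voom with quality weights called 31.5% of all genes. The log2 fold change ran from 0.47 to 0.97 over them. In the same comparison 13 of 14 mature adipocyte genes and 8 of 8 adipocyte progenitor genes had a higher fitted mean. Their part in the values of Angptl4 was not tested.

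The PPAR family and cofactors (12 genes), the peroxisomal enzymes (15) and the ketone body enzymes (4) had 0 genes called by edgeR in any comparison. Rxra, the retinoid receptor partner of PPARs, was at 230, 242, 254 and 178 CPM in SOD1-G93A Lepob/+ and at 148, 131, 96.8 and 169 CPM in SOD1-G93A (log2 fold change 0.73, SE 0.24, adjusted p = 0.261 by edgeR and from 0.0112 to 1 over the alternatives), without overlap. Of all genes, 7.18% had groups apart there, and over the alternatives the log2 fold change of Rxra ran from 0.23 to 0.86. Voom with quality weights called 31.5% of all genes in that comparison, which is also that of Hsd17b4 and Acat1 below. DESeq2 on 16 libraries called 2.85% of its genes there. Ppargc1a, a coactivator of mitochondrial genes, had a log2 fold change of -1.09 (SE 0.38, adjusted p = 0.597) between SOD1-G93A Lepob/+ and Lepob/+, where its highest value, 16.02 CPM, was again that of the muscle-rich Lepob/+ 4, and -0.54 without that library. Rxrg, another retinoid receptor, had a log2 fold change of 1.17 (SE 0.58) in Lepob/+ against WT that turned to -0.30 without Lepob/+ 4, where it was at 80.7 CPM against 7.80 to 12.4 CPM in the other 3 Lepob/+ libraries. Nrip1, a corepressor, had one of 0.35 (SE 0.18) in SOD1-G93A Lepob/+ against Lepob/+. Among peroxisomal genes, Decr2 had an interaction term of 0.50 (SE 0.20) and Scp2 of 0.48 (SE 0.29), both with an adjusted p of at least 0.564, and Hsd17b4, the multifunctional enzyme, a log2 fold change of 0.38 (SE 0.19, adjusted p = 0.329 by edgeR and from 0.0136 to 1 over the alternatives) in the double mutant against SOD1-G93A. Of the ketone body enzymes, Oxct1, which activates acetoacetate, had a log2 fold change of 0.83 (SE 0.38, adjusted p = 0.951) in SOD1-G93A Lepob/+ against WT, and 0.28 without SOD1-G93A Lepob/+ 3, the library that went against its label, where it was at 365 CPM. Bdh1, a dehydrogenase of ketone bodies, had an interaction term of -1.86 (SE 1.04, adjusted p = 0.564), and Acat1, a thiolase, a log2 fold change of 0.24 (SE 0.17, adjusted p = 0.49 by edgeR and from 0.0308 to 1 over the alternatives) in the double mutant against SOD1-G93A.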

How the data were processed

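RNA from 16 iWAT samples (4 genotypes, 4 each) was sequenced by the authors, who aligned reads to mm10 (GRCm38) with HISAT2 2.1.0 and counted them per gene with featureCounts 2.0.2, per the labels and the study's methods. The authors deposited raw counts of reads per Ensembl gene, not normalised; the strand setting and annotation release are not given in the sources used here. Of 54752 identifiers, 54723 were matched to symbols. Counts were filtered with filterByExpr (minimum count 10, minimum total 15), scaled by TMM and tested with edgeR 4.0.16 quasi-likelihood F tests in 1 fit of all 16 libraries, with Benjamini-Hochberg adjustment over the 19736 genes tested and a threshold of 0.05. Values are TMM-scaled CPM; log2 CPM has a prior count of 1. Positions and lengths are from GENCODE M21, promoter sequences from RefSeq (GRCm38.p6), with 8 of 9 genes matched. Correlations were tested over 100000 permutations, 2-sided. The 2 most distant libraries were those farthest from the median of 1 variable only, the marker list or else 1 gene of the pair. DESeq2 and limma voom were alternatives. The edgeR procedure was tested on simulated data. The named genes were the 9 members, up to 4 genes of each pathway list with the smallest p in any comparison, and the 5 genes most correlated with the enzymes; 2 genes that this rule named are not reported here. Members, lists and alternatives were chosen with earlier results of these data known, except where the text says a choice came later. Replicates are separate animals per the study's methods, and no pair of libraries agreed within sampling noise. Column names matched the sample titles.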

Additional observations from a re-analysis of the deposited data

Results flagged for a closer look

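Of 36 groups of 4 libraries (9 genes in 4 genotypes), 1 held a library that stood far from the others. Ppara in Lepob/+ 3, at 9.72 CPM against 0.904 to 1.97 CPM in the other 3 Lepob/+ libraries, lay at a distance of 0.879 of the group's range from its neighbour, above the 95% limit of Dixon's test for 4 values. Chance marks about 1 in 20 such groups. The interaction, with no member at an adjusted p below 0.05, gave no further entry.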

How the results depend on the processing

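Under 28 alternatives (26 for the interaction, which uses all genotypes), 0 members were called, with 1 exception: voom with quality weights called 1 member (Ppara) in SOD1-G93A Lepob/+ against SOD1-G93A. Of 1494 fold changes of members under the alternatives, 137 had another sign than in the reported edgeR fit. Scaling on mature adipocyte genes moved the median log2 fold change of the 8 enzymes to 0.64 in Lepob/+ against WT, 0.24 in SOD1-G93A against WT, -0.30 in SOD1-G93A Lepob/+ against SOD1-G93A, -0.10 in SOD1-G93A Lepob/+ against WT (1 of 8 enzymes higher instead of 5), -0.69 in SOD1-G93A Lepob/+ against Lepob/+ and -0.93 in the interaction. It moved the median of all genes in the same comparisons to 0.28, 0.31, -0.45, -0.16, -0.50 and -0.83. Under it Slc22a5, Nrip1, Decr2, Scp2, Hsd17b4 and Acat1 had log2 values between -0.17 and -0.01 in place of positive ones. Leaving out Lepob/+ 3 and 4 together, chosen after seeing the data, gave medians of -0.07 in Lepob/+ against WT, 0.08 in SOD1-G93A Lepob/+ against Lepob/+ and 0.10 in the interaction. Of these moves the cause was not tested. Leaving out each library in turn gave 0 members called throughout and medians of 0.12 to 0.40, -0.12 to 0.10, 0.04 to 0.22, -0.04 to 0.14, -0.27 to -0.07 and -0.30 to -0.03 in the order of the report.

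With the replicate number as a block the medians were 0.27, -0.04, 0.15, 0.06, -0.19 and -0.13, and 0 members were called. Same-numbered libraries did not deviate together (correlations from -0.69 to 0.52, above 0.1 in 5 of 24 pairs, and 1 of 16 libraries correlated best with its own number), so the numbers were taken as names. The enzymes had 2548 or more counts in every library, so the spread between libraries and not depth limits these comparisons, while Ppara has as few as 23. High counts do not settle which reads belong to Acadvl and Hadhb, whose levels are uncertain as given above. With 4 libraries a group, the 95% intervals of the enzymes between genotypes reach 0.38 to 0.54 on either side on the log2 scale.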
